A study of Arabidopsis thaliana with 12 samples.

Results

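The 40 transcripts described here were the abundant ones on a 1-channel Arabidopsis thaliana array whose probe carried exactly 1 gene name, out of 3439 probes in all and 692 with a single gene. They were chosen by their deposited values in these same 12 samples: a probe was taken when its value was above 0 in every sample and its mean over the 12 was 1 or more, on a scale that ends at 100. The rule gave 49 probes, and 9 of them, IAA31 among them, were left out by name. Just inside the limit lay AT5G53920, ATSPS4F and AT5G26850, with deposited means of 1.01, 1.03 and 1.09, and just outside lay AT1G12800, AT2G44760 and AT3G04650, with 0.973, 0.962 and 0.905. All 12 samples were total RNA of wild-type plants of the Columbia 0 ecotype, the common laboratory accession. In 6 of them the plants were light adapted, and in the other 6 light-adapted plants had been exposed to darkness for 1 h. The labels give no tissue, age or pooling of plants, and no label states that the samples are of different plants. The p-values therefore reflect sample-to-sample spread that could be purely technical.

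When a plant is moved from light to darkness, photosynthesis stops and the leaf turns from making sugars to living on stored starch. Transcript levels follow light and sugar signals and the circadian clock, and a change in level after a short time needs either a transcript with a short life or one that is made quickly. Many abundant leaf transcripts encode long-lived chloroplast and housekeeping products. The total RNA was taken from bulk samples, where fewer cells of a type and less RNA per cell cannot be told apart.

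Values below are quantile-normalised intensities, so every sample has the same overall distribution, and changes are differences of mean log2 intensity, dark minus light. Samples were averaged in neighbouring twos by their number (1 with 2, 3 with 4, 5 with 6), which left 3 replicates a group. A transcript is said to have risen or fallen where limma gave an adjusted p under 0.05 (Benjamini-Hochberg over all 3439 probes). It is said to have held where the 95% interval of its change lay within 2-fold, between -1 and 1 on the log2 scale. The intensity of a probe also depends on its sequence, so ranks order probes and do not give the relative amounts of different transcripts. Of the 40 probes, 39 were above a background limit in all 12 samples. AT1G02020 was above it in the 6 samples of the light and in 3 dark ones. The limit ranged from 0.0850 to 0.194 over samples 3 to 6 of the light and from 0.0289 to 0.0501 over the rest. Of 19 marker genes of leaf, root, seed, flower, dark response and clock, 1 was measured by a probe with a single gene, so the tissue could not be checked further. That 1 was the leaf antenna gene LHB1B2 (LHCB1.5), with a median of 47.1 in the light and 38.3 in the dark.

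After 1 h of darkness 5 of the 40 transcripts had fallen and 1 had risen. These were AT1G02020, AT2G46630, AT5G26850, CML30 and AT3G06570, which fell, and AT3G15900, which rose. Another 13 held within 2-fold, and 21 met neither criterion. The called share was 15%, against 7.62% of all probes and 21.0% of the 271 probes of any annotation that were above 0 throughout with a mean of 1 or more. The share that held was 32.5%, against 21.5% of all probes and 35.8% of those 271. Of the 40 genes, 27 had a deposited mean of 1 or more in both groups, and 13 reached the rule's mean through 1 group alone. Of the 6 calls, 5 were among those 13, which had to differ to be selected that way, so the counts describe the selected genes and support nothing beyond them. The same-numbered samples of both groups deviated together. With the number of each pair as a replicate block, limma called 0 of the 40 and 0 of all 3439 probes after adjustment. Unadjusted, 18 of the 40 had a p under 0.05 in that fit. The share of all probes is not given and the genes were selected on these values, so nothing is drawn from that count.

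**Figure D1:**
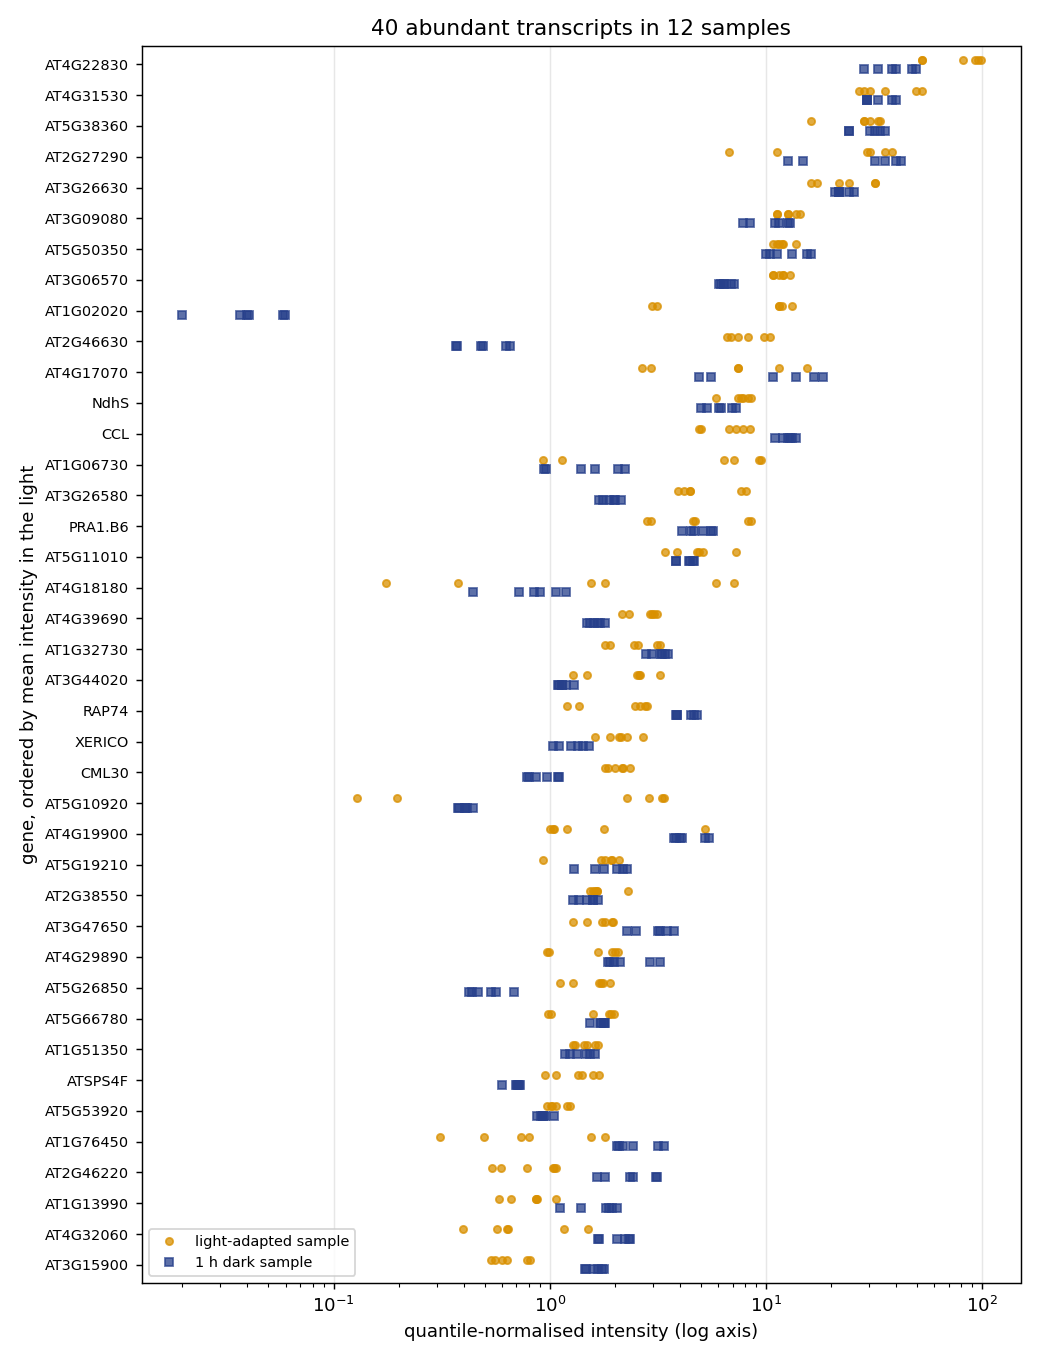
Normalised intensity (log axis) of the 40 genes in each sample, with circles for 6 light-adapted and squares for 6 dark samples, ordered by mean intensity in the light. AT1G02020 and AT2G46630 lie far below their own light-adapted samples in the dark, at 0.0199 to 0.0594 and 0.367 to 0.654. The 5 genes at the top overlap between groups except AT4G22830.

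By group means, the top of the order was the same in both groups. The same 5 genes took ranks 1 to 5 in the light and again in the dark. They were AT4G22830, AT4G31530, AT5G38360, AT2G27290 and AT3G26630, in that order in both. Between single samples the order varied, and AT2G27290 ranked 2 to 13 in the light and 1 to 7 in the dark. AT4G22830 was the brightest probe of the 40 in every light-adapted sample and ranked 1 to 4 in the dark samples. Its lowest, median and highest intensities were 52.5, 86.6 and 98.1 in the light and 28.3, 39.1 and 49.4 in the dark. Every light-adapted sample was thus above every dark sample, but the log2 change of -0.98 (SE 0.30) did not pass (adjusted p = 0.131). In the deposited table it had the scale's maximum in 2 light-adapted samples, 3 and 4, so their true intensities may be higher. With neighbouring numbers as random blocks over all 12 samples the same change did pass (adjusted p = 0.0116). It did not pass without normalization (-0.71, adjusted p = 0.505), with median scaling (-0.51, 0.382) or with cyclic loess (-1.04, 0.132). The separation of the groups holds for normalised values only. As deposited, light-adapted samples 5 and 6 read 38.8 and 37.4, below dark samples 1 to 4 at 40.1 to 59.7.

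AT4G31530, of the family of Rossmann-fold proteins that bind nicotinamide cofactors, held. Its intensity was 27.0, 32.8 and 52.5 (lowest, median, highest) in the light and 29.3, 31.1 and 40 in the dark, with a log2 change of -0.12 and an interval from -0.82 to 0.57. Light-adapted samples 3 and 4 were the 2 highest of its 12 samples. Its interval left the 2-fold limit under each of the 3 other scalings (-1.12 to 1.79 without normalization, -0.78 to 1.84 with median scaling, -0.97 to 1.07 with cyclic loess) and with the replicate block (-1.17 to 0.92). AT5G38360, of the alpha/beta hydrolase family, held as well, at 16.1, 29.3 and 33.6 in the light and 24.1, 31.1 and 35.3 in the dark. Its log2 change was 0.10, with an interval from -0.50 to 0.71. It too left the limit under the 3 other scalings, with 0.69 (-0.33 to 1.72) without normalization, 0.89 (0.34 to 1.44) with median scaling and 0.43 (-0.22 to 1.08) with cyclic loess. AT3G26630 encodes a pentatricopeptide repeat protein, a family that binds organelle RNA. Its intensity was 16.1, 22.9 and 31.9 in the light and 20.9, 21.7 and 25.6 in the dark, and its log2 change was -0.03 with an interval from -0.72 to 0.66, which reached 1.05 without normalization. The groups overlapped in all 3 genes. The sign of the small change turned for AT4G31530 and AT3G26630 under each of the other scalings tried, from -0.12 to 0.33 and from -0.03 to 0.39 without normalization.

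AT2G27290 kept rank 4 but did not meet the criterion for holding. Its intensity was 6.71, 29.8 and 38.3 in the light and 12.6, 33.6 and 42.1 in the dark. Light-adapted samples 5 and 6 were the lowest in the light, and samples 3 and 4 were the lowest in the dark. The log2 change of 0.33 had an interval from -1.62 to 2.28, so neither a rise nor a fall of 2-fold could be told from no change.

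**Figure D2:**
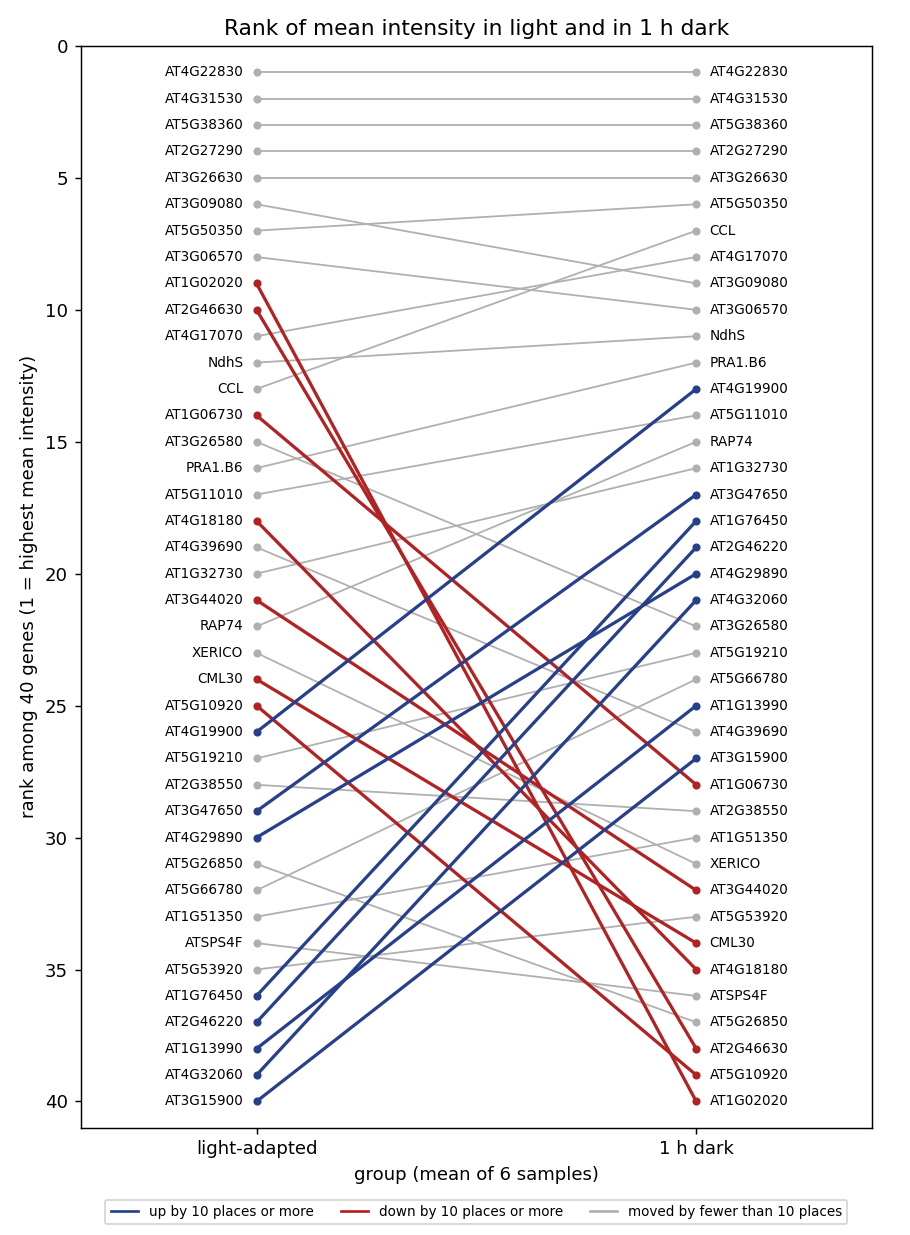
Rank of each gene's mean normalised intensity among the 40 genes in the light (left) and in 1 h dark (right), with lines coloured where a gene moved by 10 places or more. Ranks 1 to 5 are the same on both sides, 8 genes gained and 7 lost at least 10 places.

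Below the top, the order shifted. Of the 10 highest genes in the light, 8 were among the 10 highest in the dark, and of the 20 highest, 14 were. By 10 places or more 8 genes moved up and 7 moved down, and 15 moved by 3 places or fewer. Spearman's rho between group means was 0.548 over the 40 genes, given as a description. Between averaged replicates it was 0.958 to 0.979 within the dark, 0.80 to 0.845 within the light and 0.473 to 0.637 across groups. Ranks by deposited means lay within 3 places of these for all 40 genes. For 16 genes the ranks in the 6 light-adapted samples and in the 6 dark samples did not overlap, with 7 placed higher and 9 placed lower in the dark. These ranks are among the 40, so no share of other probes stands beside that count. The 13 genes that reached the rule's mean through 1 group alone had to differ to be selected that way. The shifts in order therefore describe the selected genes alone.

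The largest falls in rank were those of AT1G02020 and AT2G46630. Both reached the rule's mean through the light alone, with deposited dark means of 0.0434 and 0.439, so they had to be lower in the dark to be selected. AT1G02020, of the nitroreductase family of flavin enzymes, went from rank 9 to rank 40. Its lowest, median and highest intensities were 2.95, 11.5 and 13.2 in the light and 0.0199, 0.0403 and 0.0594 in the dark. The groups were far apart, although light-adapted samples 3 and 4, averaging 3.04, lay well below the other 2 pairs at 12.3 and 11.6. Means over the 3 averaged replicates were 9.00 ± 5.18 and 0.0425 ± 0.0106 (SD, n = 3). Dark samples 2, 5 and 6 were not above the background limit, so its level in the dark is only bounded there. With these 3 samples raised to their limits, the mean log2 difference was -7.32, or 159.2-fold lower in the dark (a bound added after the data were seen). It bounds the estimate against background only, and by pair it was -8.00, -5.98 and -7.97. The fit on the values as measured gave -7.56 (interval -9.26 to -5.87, SE 0.65, adjusted p = 0.00911, and 0.0726 with the replicate block).

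AT2G46630 went from rank 10 to rank 38. Its intensity was 6.57, 7.82 and 10.4 in the light and 0.367, 0.487 and 0.654 in the dark, and all 12 samples were above background. Means were 8.21 ± 1.73 and 0.499 ± 0.136 (SD, n = 3). The log2 change of -4.06 (SE 0.27, adjusted p = 0.00645, and 0.0629 with the replicate block) ran from -4.37 to -3.61 within pairs. Among all 3439 probes its place went from 54 in the light to 475 in the dark.

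CML30, AT5G26850 and AT3G06570 fell by less. CML30, a calmodulin-like protein of the family of calcium sensors, had 1.79, 2.08 and 2.35 in the light and 0.787, 0.919 and 1.11 in the dark. Its light and dark samples did not overlap, with means of 2.05 ± 0.185 and 0.937 ± 0.128 (SD, n = 3), and its log2 change was -1.14 (SE 0.14, adjusted p = 0.0196, and 0.0723 with the block). AT5G26850 had 1.11, 1.71 and 1.90 in the light and 0.425, 0.501 and 0.683 in the dark, again without overlap, with means of 1.58 ± 0.334 and 0.518 ± 0.0981 (SD, n = 3) and a log2 change of -1.60 (SE 0.23, adjusted p = 0.0278, and 0.0671 with the block). AT3G06570 encodes an F-box protein with kelch repeats, a class that selects proteins for ubiquitination. It had 10.8, 11.7 and 12.9 in the light against 6.03, 6.40 and 7.14 in the dark. Means were 11.7 ± 0.760 and 6.51 ± 0.430 (SD, n = 3). This was the smallest change among the 6 calls, -0.84 (SE 0.09, adjusted p = 0.0149, and 0.104 with the block), in a gene whose samples spanned 1.2-fold in the light and 1.18-fold in the dark. The calls of CML30 and AT5G26850 were lost without normalization (adjusted p = 0.116 and 0.0618). That of AT3G06570 was lost under median scaling, where the change was -0.53 (adjusted p = 0.155), and without normalization, where it was -0.73 (adjusted p = 0.174). The call was also lost when only probes above 0 in all samples were fitted (adjusted p = 0.0616), with the change still -0.84. AT3G06570 was the only called gene with a deposited mean of 1 or more in both groups, and it moved from rank 8 to rank 10.

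AT3G15900 was the 1 transcript that rose. Its intensity was 0.533, 0.617 and 0.806 in the light and 1.45, 1.63 and 1.77 in the dark. Every dark sample was above every light-adapted one, with means of 0.652 ± 0.128 and 1.61 ± 0.133 (SD, n = 3), and the gene went from rank 40 to rank 27. The log2 change was 1.32 (SE 0.17, adjusted p = 0.0216, and 0.0885 with the block), and within pairs it ran from 1.10 to 1.62. The value without normalization, 1.07, fell short of the threshold (adjusted p = 0.0605). Over all probes 4.25% were called higher, and over the 271 bright probes 9.96% were, against 2.5% here. Called lower were 3.37% of all probes, 11.1% of the 271 and 12.5% here.

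All 6 calls were kept in each of the 12 fits that left out a single sample. Without a whole pair of light-adapted samples (1 and 2, 3 and 4, 5 and 6 in turn) 3, 4 and 6 of them stayed, and without the dark pairs 1, 3 and 1. AT2G46630 was the 1 call that stayed without each dark pair. AT1G02020 missed the threshold without dark samples 1 and 2 (adjusted p = 0.0556) and without 5 and 6 (0.0508), as did AT3G06570 (0.0713 and 0.0610). AT5G26850 and CML30 were lost without each of 5 pairs, all but light-adapted 5 and 6 (adjusted p up to 0.0993 and 0.0760). AT3G15900 was lost without light-adapted samples 1 and 2 and without each dark pair (up to 0.0901).

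**Figure D3:**
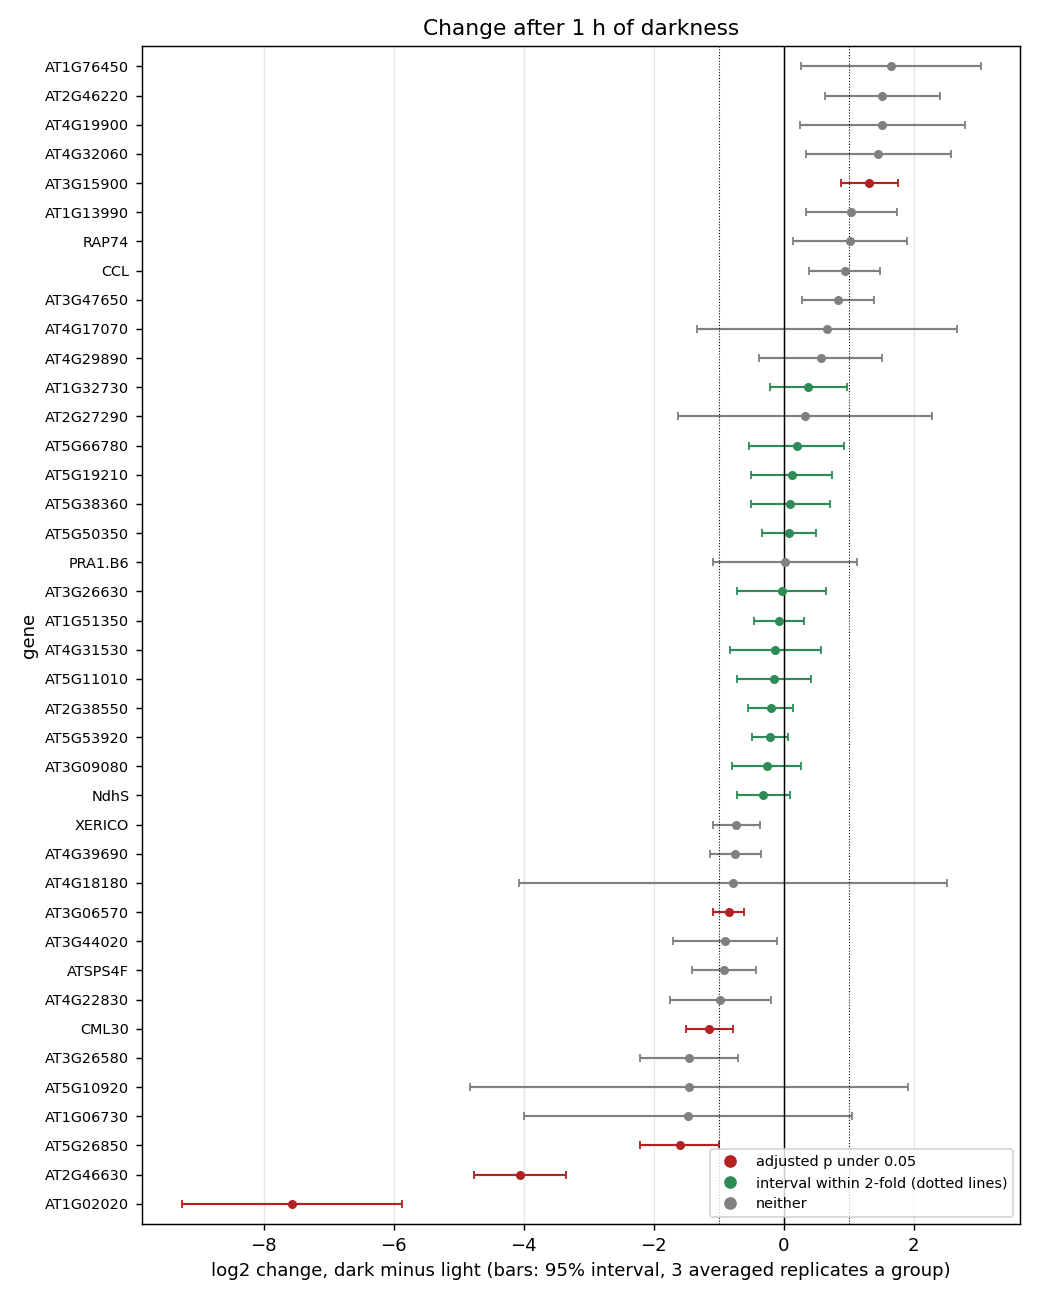
Log2 change, dark minus light, of each gene with its 95% interval from limma on 3 averaged replicates a group; dotted lines mark a 2-fold change. The 6 called genes are red, the 13 that held within 2-fold are green, and the 21 that met neither criterion are grey. AT1G02020 lies lowest, at -7.56 on the values as measured, and AT5G10920 has an interval from -4.83 to 1.91.

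For 18 of the 40 genes (45.0%) no light-adapted sample overlapped any dark one, against 15.3% of all probes and 44.3% of the 271 bright ones. Of the 18, 10 lay lower in the dark, where 6.51% of all probes and 21.0% of the bright ones did. The other 8 lay higher, where 8.81% of all probes and 23.2% of the bright ones did. Of the 18, 12 were not called. The uncalled genes with no overlap were AT4G22830, AT3G26580, AT4G39690, XERICO and ATSPS4F on the lower side and CCL, RAP74, AT3G47650, AT1G76450, AT2G46220, AT1G13990 and AT4G32060 on the higher side. The uncalled ATSPS4F, AT1G76450, AT2G46220, AT1G13990 and AT4G32060 reached the rule's mean through 1 group alone, as did 5 of the 6 calls. These genes had to differ to be selected that way, so the counts here describe the selected genes alone. With neighbouring numbers as random blocks over all 12 samples, limma called 20 of the 40, against 584 of all 3439 probes. The 12 genes with no overlap and no call were all among those 20.

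Among these 12 genes were 3 of the 5 largest rank moves, all upward by 18 places. The 3 genes, AT1G76450, AT2G46220 and AT4G32060, had deposited light means of 0.988, 0.903 and 0.839. They reached the rule's mean through the dark alone, so they had to be higher in the dark to be selected. AT1G76450, whose product belongs to the PsbP family named for a photosystem II protein of the thylakoid lumen, went from rank 36 to rank 18. It had 0.312, 0.770 and 1.79 in the light and 2.05, 2.30 and 3.37 in the dark, which is 1.65 on the log2 scale (SE 0.53, adjusted p = 0.146). AT2G46220 went from rank 37 to rank 19, with 0.539, 0.912 and 1.07 in the light and 1.65, 2.38 and 3.12 in the dark. Its log2 change was 1.52 (SE 0.34, adjusted p = 0.0675). It passed under median scaling (0.0498), and did not without normalization (0.239), with cyclic loess (0.0711) or with the replicate block (0.0838). AT4G32060 encodes an EF-hand protein that regulates calcium uptake by mitochondria and went from rank 39 to rank 21. It had 0.398, 0.637 and 1.51 in the light and 1.67, 2.14 and 2.35 in the dark, for a log2 change of 1.46 (SE 0.43, adjusted p = 0.120). In all 3 the light-adapted samples were the lower ones throughout in normalised values. Their spread was wide for AT1G76450 and AT4G32060, at 5.74-fold and 3.78-fold. As deposited, the groups of AT2G46220 overlapped, with light-adapted sample 4 at 1.35 and dark sample 5 at 1.33.

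Roles and families of genes known by a locus code are given from general knowledge of Arabidopsis, since the annotation used here holds no product names, and the counts by role rest on them. Of 6 genes with chloroplast roles, none was called and 2 held. NdhS, the subunit of the chloroplast NADH dehydrogenase-like complex that helps it take electrons from ferredoxin, held with a log2 change of -0.31 (interval -0.72 to 0.10). Its intensity was 5.90, 7.76 and 8.54 in the light and 4.98, 6.12 and 7.25 in the dark, and the groups overlapped. AT2G38550, of a family that exports fatty acids from plastids, held with -0.20 (interval -0.54 to 0.15).

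CCL, a gene whose messenger RNA stability is set by the circadian clock, had 4.89, 6.98 and 8.40 in the light and 11, 12.7 and 13.7 in the dark. All its dark samples were higher, and its log2 change of 0.94 (SE 0.21) missed the threshold (adjusted p = 0.0659). It passed under median scaling (0.0268) and cyclic loess (0.0442), and did not without normalization (0.120) or with the replicate block (0.159). AT3G47650, which encodes a chaperone of Rubisco assembly, had 1.29, 1.77 and 1.96 in the light and 2.28, 3.20 and 3.77 in the dark (log2 change 0.84, adjusted p = 0.0880). AT3G44020, for a protein of the thylakoid lumen, had a log2 change of -0.91 (adjusted p = 0.163), and its groups overlapped narrowly, at a lowest of 1.29 in the light and a highest of 1.30 in the dark.

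Of 4 genes for RNA processing and transcription, 3 held and none was called. Besides AT3G26630 these were AT5G11010, of the pre-mRNA cleavage factor family, with a log2 change of -0.15 (interval -0.72 to 0.42), and AT5G19210, a DEAD-box RNA helicase, with 0.13 (interval -0.49 to 0.75). RAP74, the large subunit of the general transcription factor TFIIF, did not hold. It had 1.2, 2.54 and 2.81 in the light and 3.82, 4.19 and 4.79 in the dark, without overlap, and a log2 change of 1.02 (SE 0.34, adjusted p = 0.153). Light-adapted samples 3 and 4 were its lowest.

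Of 9 genes for metabolic enzymes, 1 fell, AT1G02020, and 2 held, AT4G31530 and AT5G38360. ATSPS4F, a sucrose phosphate synthase of the pathway that makes sucrose for export, had 0.946, 1.38 and 1.68 in the light and 0.603, 0.709 and 0.730 in the dark. Its groups did not overlap and its log2 change of -0.92 (SE 0.19) was just short of the threshold (adjusted p = 0.0570). It passed with cyclic loess (0.0432), and did not without normalization (0.124) or with median scaling (0.0585). AT4G29890, of the choline monooxygenase family, had a log2 change of 0.57 (interval -0.37 to 1.52). The remaining 4, AT5G10920, AT1G06730, AT4G18180 and AT4G19900, varied most between light-adapted samples and are described with that spread.

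Of 11 genes for signalling, protein turnover and organelle structure, CML30 and AT3G06570 fell and 3 held. The 3 were AT3G09080, a WD40 repeat protein, with a log2 change of -0.26, AT1G51350, an armadillo repeat protein, with -0.07, and AT5G53920, related to methyltransferases of ribosomal protein L11, with -0.21. XERICO, a RING-type ubiquitin ligase gene that raises abscisic acid levels, lay closest to the threshold of all uncalled genes. It had 1.62, 2.11 and 2.71 in the light and 1.04, 1.30 and 1.51 in the dark, without overlap, with a log2 change of -0.73 (SE 0.14, adjusted p = 0.0504). The gene passed in 10 of 29 alternative fits. It did not pass without normalization (adjusted p = 0.0765), with median scaling (0.191) or with cyclic loess (0.0546).

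AT3G26580, a tetratricopeptide repeat protein, had 3.91, 4.46 and 8.08 in the light and 1.68, 1.92 and 2.12 in the dark (log2 change -1.46, SE 0.29, adjusted p = 0.0553). AT4G39690, which shapes the inner membrane of mitochondria, had 2.15, 2.93 and 3.12 in the light and 1.48, 1.63 and 1.79 in the dark (log2 change -0.74, SE 0.15, adjusted p = 0.0563). Both lay wholly lower in the dark and missed the threshold narrowly. AT3G26580 passed without normalization, with median scaling and with cyclic loess (adjusted p = 0.0249, 0.0256 and 0.0297), and did not with the replicate block (0.118). AT4G39690 passed with cyclic loess (0.0462), and did not without normalization (0.155), with median scaling (0.112) or with the block (0.155). PRA1.B6, a prenylated Rab acceptor of the endomembrane system, had a log2 change of 0.03, but with light-adapted values of 2.81 to 8.54 its interval ran from -1.08 to 1.14 and it did not meet the criterion for holding.

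Of the 10 genes to which no role is given here, AT2G46630 and AT5G26850 fell, AT3G15900 rose, and AT5G50350, AT1G32730 and AT5G66780 held, with log2 changes of 0.08, 0.38 and 0.20. AT1G13990 had 0.584, 0.865 and 1.07 in the light and 1.11, 1.84 and 2.05 in the dark, a log2 change of 1.04 (adjusted p = 0.0896). Across the 13 genes that held, log2 changes ran from -0.31 to 0.38, and no interval passed -0.82 or 0.98. Of the 13, 3 also held under each of the 3 other scalings and with the replicate block, NdhS, AT5G11010 and AT1G51350. With the replicate block alone, AT4G31530, AT3G09080 and AT1G32730 no longer held. With holding narrowed to 1.5-fold, 4 genes met it, 10% against 10.2% of all probes and 10.3% of the bright ones. The median log2 change of the 40 genes was -0.10, against 0.0 for all probes and 0.06 for the 271 bright ones. Its sign depended on the scaling: under median scaling it was 0.15, against 0.23 for the bright probes.

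**Figure D4:**
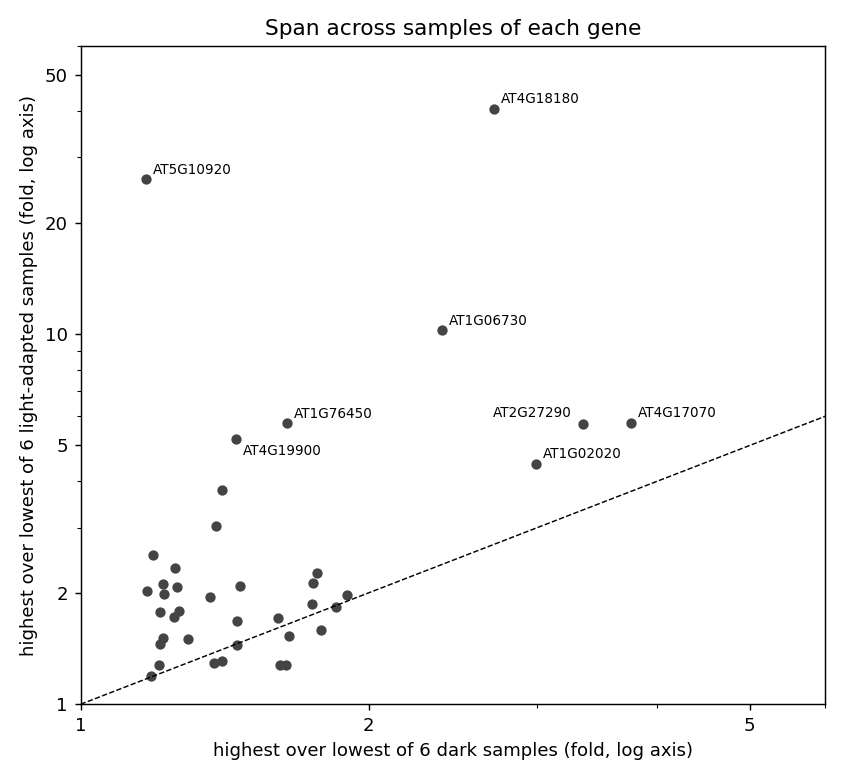
Highest over lowest intensity of each gene across the 6 light-adapted samples (vertical, log axis) and across the 6 dark samples (horizontal, log axis), with a dashed line of equal spans. For 32 of 40 genes the span was wider in the light, and the 8 named genes spanned at least 4-fold there.

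These genes were less even in the light than in the dark. For 32 of the 40 (80.0%) the span from the lowest to the highest sample was wider in the light, against 74.9% of the 271 bright probes, so this was not particular to them. The median span was 1.96-fold in the light and 1.43-fold in the dark, and the widest was 40.6-fold in the light and 3.76-fold in the dark. In the light 8 genes spanned at least 4-fold, and in the dark 0 did. The light-adapted pairs did not share one pattern. Of these 8 genes, 3 were lowest in samples 1 and 2, 2 in samples 3 and 4 and 3 in samples 5 and 6.

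AT4G18180, of the pectin lyase superfamily of cell wall enzymes, averaged 0.276 in light-adapted samples 1 and 2, 6.52 in 3 and 4 and 1.68 in 5 and 6. Its dark pairs averaged 1.13, 0.782 and 0.671, so the dark values lay between the light-adapted pairs and the interval of its change ran from -4.07 to 2.51. AT5G10920, for argininosuccinate lyase, the last enzyme of arginine synthesis, averaged 0.163, 3.34 and 2.58 in the light-adapted pairs and 0.404, 0.378 and 0.427 in the dark ones. Its dark samples spanned 1.17-fold. Over all samples its log2 change was -1.46 (adjusted p = 0.593), and without light-adapted samples 1 and 2 it was -2.91 and passed (adjusted p = 0.0176). That pair was the only one lower in the light than in the dark. The gene passed in 1 of 29 alternative fits, where its change ran from -2.91 to -0.67. It reached the rule's mean through the light alone, with a deposited dark mean of 0.362, so it had to be lower in the dark to be selected.

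AT1G06730, a carbohydrate kinase of the pfkB family, averaged 6.77, 9.37 and 1.03 in the pairs of the light and 1.51, 2.15 and 0.948 in the dark ones. Samples 5 and 6 of the light were thus at the level of the dark. Its log2 change was -1.47 (adjusted p = 0.447), and -2.47 without those samples (adjusted p = 0.0644). AT4G17070, a peptidyl-prolyl isomerase, averaged 2.81, 13.5 and 7.43 in the light and 5.24, 12.3 and 17.5 in the dark, and its lowest pair was 1 and 2 in both groups. AT4G19900, of a glycosyltransferase family, was at 1.00 to 1.77 in 5 light-adapted samples and at 5.21 in the light-adapted sample 5, against 3.77 to 5.47 in the dark. Without that sample its log2 change went from 1.52 (adjusted p = 0.144) to 1.78 and passed (adjusted p = 0.0291).

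**Figure D5:**
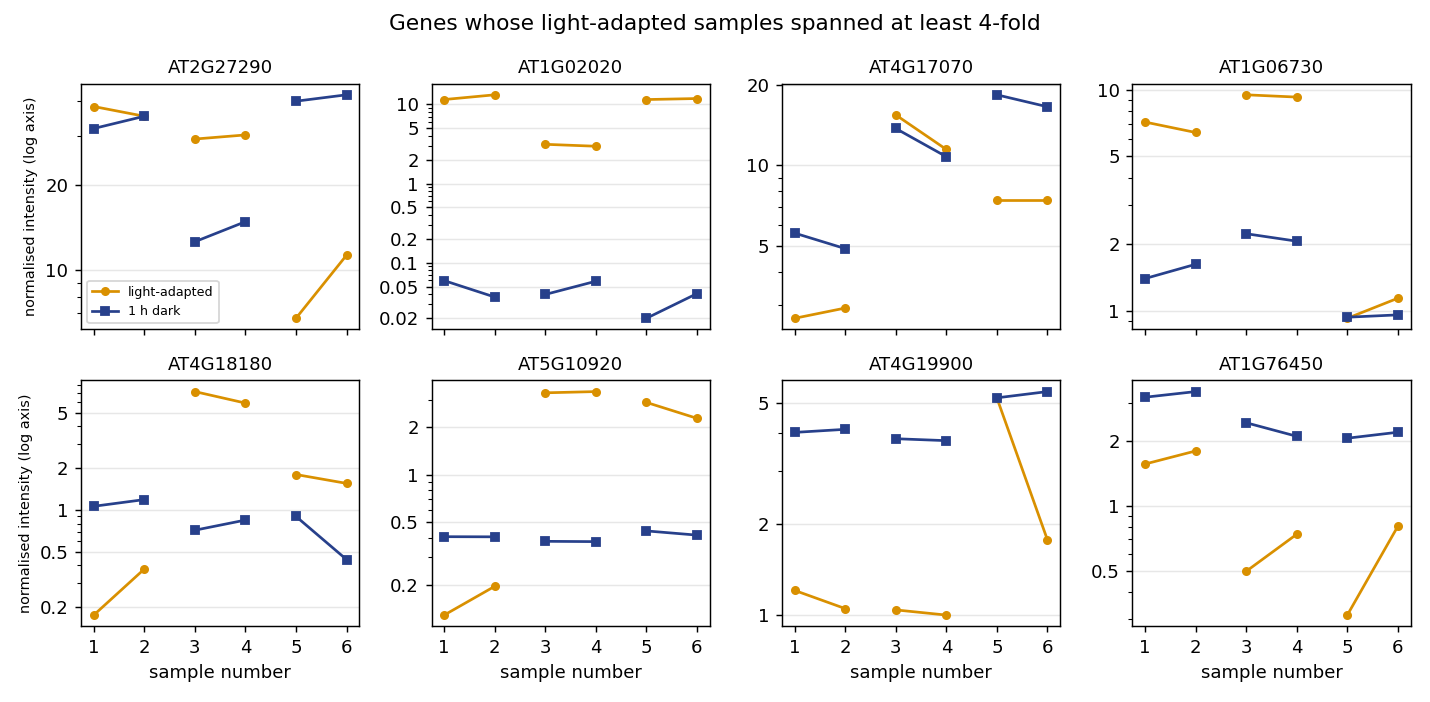
Normalised intensity (log axes) by sample number of the 8 genes whose light-adapted samples spanned at least 4-fold, with circles for light-adapted and squares for dark samples and lines joining the 2 neighbouring samples that were averaged. Light-adapted samples 1 and 2 of AT5G10920 read 0.129 and 0.196, against 2.28 to 3.37 for the rest of the light, and samples 5 and 6 of AT4G19900 differ from each other, at 5.21 and 1.77.

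Summed over the 40 genes, normalised intensity was 346.7 to 361.9 in light-adapted samples 1 to 4, or 12.5% to 13.1% of the sum over all probes. In sample 5 of the light it was 278.8 (10.1%) and in sample 6 it was 263.8 (9.54%). The dark samples had sums of 259.9 to 278.2 (9.37% to 10.1%). AT4G22830, the brightest of the 40, had 81.0 to 98.1 in light-adapted samples 1 to 4 and 52.5 in both 5 and 6. Light-adapted samples 5 and 6 were thus near the dark samples in this sum, and whether their higher background limit plays a part was not tested. Of 13 lists of gene classes matched by words in gene names and synonyms, which the annotation seldom spells out, 20 genes of the array were in some list and 1 of them, of the transcription factor list, was called. The 1 member of the 40 found in any list was NdhS, among oxidoreductases.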

How the data were processed

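The authors' deposited table held intensities on a linear scale from 0 to 100 for 3439 probes. How they were scanned, background-corrected and scaled is not given in the sources used here. Groups and sample numbers came from the titles. Genes came from a platform annotation, updated through RefSeq (TAIR10.1), where all 40 matched a locus; coordinates are left out, as the probes come with no build. Arrays were quantile normalised, floored at 0.0116 (the 5th percentile of deposited values above 0), taken to log2, averaged over neighbouring sample numbers and fitted with limma 3.58.1 in R 4.3.3 over all probes (lmFit, eBayes). The procedure was tested on simulated data. Means, medians and extremes are of normalised linear values. A background limit per sample was the 95th percentile of its values where the neighbouring sample reads 0. The number of arrays limits the precision.

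Averaging follows earlier work on these data. Correlations of the deviations of same-numbered averaged pairs were 0.121, 0.147 and 0.208, which meets the limit set for pairing (over 0.1 in each); this rests on the values alone. The fit behind the calls, errors and intervals is unpaired. The paired fit, with a replicate block, is given for the genes whose call or holding it changes. The members, roles, lists and tests were chosen with earlier results of these data known. Genes described in full were those called, the 5 brightest of each group and the 5 with the largest rank moves; other genes were given by role. Word lists covered ribosomal proteins, translation factors, proteolysis, histones, cytoskeleton, chaperones, redox, photosynthesis, kinases and phosphatases, transcription factors, transporters, lipids and oxidoreductases. Of these, ribosomal proteins, translation factors, proteolysis, cytoskeleton, transporters and lipids matched no gene, and histones, chaperones, redox, photosynthesis, kinases and phosphatases and oxidoreductases had none called. Alternatives covered normalization, floor, filter, replicate model, spread estimate and left-out samples.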

Additional observations from a re-analysis of the deposited data

Results flagged for a closer look

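In 80 groups of 6 samples (40 genes in light and dark), 6 had a highest or lowest sample set apart by more than Dixon's 95% critical value; chance flags about 1 in 20 groups. Light-adapted sample 5 of AT4G19900 read 5.21 where the others read 1.00 to 1.77. Light-adapted sample 6 read 16.1 for AT5G38360, with the others at 28.3 to 33.6, and 0.926 for AT5G19210, with the others at 1.72 to 2.09. Light-adapted sample 3 of AT2G38550 read 2.29, with the others at 1.53 to 1.66. In the dark, sample 5 of AT5G66780 read 1.54, with the others at 1.71 to 1.8, and sample 3 of ATSPS4F read 0.603, with the others at 0.698 to 0.730.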

How the results depend on the processing

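The counts depended on the replicate model. Called genes among the 40 (6) became 20 without averaging, 20 with random blocks and 20 with a replicate block on the number of all 12 samples. They became 0 with a replicate block on the averaged pairs in limma. Over all probes 262 became 814, 584, 781 and 0. Without normalization 155 probes and 3 of the 40 were called, of which 2 were among the 6. With cyclic loess 270 probes and 10 of the 40 were called, all 6 among them. Genes that held (13) became 4 without normalization, 3 of them among the 13; with median scaling 10 of the 13 held, with cyclic loess 11 and with the block 10. They became 4 with the limit of 1.5-fold, which was chosen after the data were seen. Leaving out samples or pairs gave 13 to 274 called probes, 1 to 10 called and 9 to 13 held of the 40. The lowest counts came without dark samples 1 and 2, with 13 probes and 1 of the 40; without dark 3 and 4 there were 94 and 3, and without dark 5 and 6 there were 64 and 1. Without light-adapted samples 5 and 6, 238 probes and 10 of the 40 were called. Signs turned for AT4G31530 (0.33, 0.53 and 0.049 without normalization, with median scaling and with cyclic loess) and AT3G26630 (0.39, 0.59 and 0.15). Over the 40 genes 7 signs turned under some other scaling: also NdhS, AT3G09080 and AT5G11010 (0.02, 0.13 and 0.10 with median scaling), AT5G19210 (-0.02 without normalization and with cyclic loess) and PRA1.B6 (-0.06 with cyclic loess). With samples left out, log2 changes ran from -0.26 to 0.14 for AT4G31530, -0.27 to 0.22 for AT3G26630, -0.33 to 0.80 for AT2G27290 and -0.080 to 0.25 for AT5G38360. The cause was not tested; leaving out samples also leaves fewer replicates. The other 10 genes described in full kept their sign in all 29 alternatives.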
